A study of Homo sapiens with 12 samples.

Results

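The replication-dependent histone genes are the clustered genes for the core histones H2A, H2B, H3 and H4 and for the linker histone H1. They were taken here as the protein-coding genes whose current symbol begins with H2AC, H2BC, H3C or H4C or is H1-1 to H1-6, or whose older symbol is of the HIST1H to HIST4H series. Of the 60675 genes listed in each count file, 93 matched these names, 72 of them protein-coding, and 55 had 10 or more counts summed over the 12 libraries. The 17 that were left out summed to 7 counts or fewer each, and 8 of them had 0 counts in all 12 libraries. The 55 genes comprised 5 for H1, 13 for H2A, 17 for H2B, 9 for H3 and 11 for H4, with 39 on chromosome 6, 14 on chromosome 1 and 2 elsewhere.

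The libraries came from LNCaP, an androgen-dependent human prostate cancer cell line, and from its castration-resistant derivative LNCaP:C4-2 (C4-2 below). All cells were given the synthetic androgen R1881 at 1 nM in medium with charcoal-stripped serum, and treatment lasted 72 h. The 6 groups of 2 libraries were C4-2 with R1881 alone, C4-2 treated with 50 µM namoline, which inhibits the lysine demethylase KDM1A, C4-2 treated with TCE-5002, which inhibits the lysine demethylase KDM7A, C4-2 treated with both (the combination), LNCaP with R1881 alone and LNCaP with the combination. TCE-5002 is given at 100 µM in the series description but at a lower dose in the methods. The study calls it selective for KDM7A and states that it also targets KDM7B and KDM2A. Changes with it can therefore not be assigned to KDM7A alone. The methods call the libraries biological replicates, and library totals ran from 14791602 to 20690819 counts.

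The labels of the LNCaP libraries were checked first, because part of the results rests on them. Levels are in CPM, counts scaled to the size of each library after TMM normalisation. The luminal prostate marker *KLK3* was at 404 and 357 CPM in the libraries labelled LNCaP with R1881 alone, and at 206 and 224 CPM in the matching C4-2 libraries. However, the epithelial gene *EPCAM* was at 4.07 and 3.52 CPM there against 139 and 136 CPM in C4-2 with R1881 alone, and the mesenchymal gene *VIM* was at 652 and 735 CPM against 2.62 and 2.24 CPM. Past the test defined below, 10 of 12 luminal markers were higher in C4-2. Of 6 tested markers of other cell types 4 were lower and 1 was higher. Of all genes tested, 24.3% were higher and 26.2% lower. The basal markers *KRT5* and *TP63* were at or near 0 in all libraries. These libraries are therefore called LNCaP-labelled below. In addition, the name carried in the count file of LNCaP-labelled combination replicate 1 gives namoline without TCE-5002, so the LNCaP-labelled results are also given without that library.

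Replication-dependent histone genes supply the histones that package newly made DNA, and their mRNAs normally accumulate during S phase and are degraded when DNA synthesis stops. Unlike other mRNAs, they usually end in a short conserved stem-loop that is bound by the stem-loop binding protein SLBP, and they carry no poly(A) tail. The libraries were made by poly(A) capture, so the counts are taken to come mainly from polyadenylated transcripts of these genes. They do not stand for the whole pool of histone mRNA. Such transcripts are known from differentiated cells and from cells with incomplete 3′ end processing. Carry-over of tail-less histone mRNA was not measured.

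The stem-loop sites of 5 genes that recur in the results are shown. The usual, tail-less mRNA ends at such a site, whereas annotated transcripts of these genes also run on past it. The 16 bases of the stem-loop are in capitals with the adjoining transcript in lower case, 5′ to 3′ on the transcript strand, written as DNA from GENCODE 29 transcripts (GRCh38).
H2BC21, chr1:149886188-149886203, minus strand: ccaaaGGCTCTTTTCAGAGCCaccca
H2AC6, chr6:26124669-26124684, plus strand: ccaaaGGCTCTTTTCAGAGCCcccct
H2BC4, chr6:26123472-26123487, minus strand: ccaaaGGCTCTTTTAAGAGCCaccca
H4C8, chr6:26285131-26285146, minus strand: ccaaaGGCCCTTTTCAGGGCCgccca
H4C14, chr1:149833032-149833047, plus strand: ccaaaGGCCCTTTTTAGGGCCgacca

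A stem-loop of this form, 6 complementary base pairs beginning GG and ending CC around a loop of TTNN, was found in a coding transcript of 29 of the 55 genes, against 119 of 19684 coding genes in all (0.605%). Transcript models of many of the others stop at the end of the coding sequence, as for *H1-2* and *H2BC12*, and cannot hold it. For 20 of the 29, a transcript continued for more than 100 bases past the stem-loop, by 1729 bases in *H2BC21*, 1114 in *H2AC6*, 1479 in *H2BC18* and 1917 in *H2BC26*. In the annotation used for counting, 26 of the 55 genes had more than 1 exon or over 800 bp of exon, limits set after the lengths were seen, and these 26 genes held 62.4% of all counts of the 55.

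An octamer was found in most promoters of the H2A and H2B genes. RefSeq windows (GRCh38.p14) from 250 bases before to 50 after the start site were at hand for 48 of the 55 genes, in 51 windows. The octamer ATTTGCAT, searched on both strands, was in 8 of 10 H2A and 13 of 18 H2B windows and in 0 of the 5 H1, 8 H3 and 10 H4 windows, against 1.77% of all 35116 windows. CCAAT was in 42 of the 51 windows (82.4%, against 34.6% of all), though in 1 of the 10 for H4, and TATAAA was in 35 (68.6%, against 11.5%). The window of *H2BC4* is shown because it also holds the start site of *H2AC6*, which lies 218 bases away on the other strand. That of *H1-2* is shown because this gene had the highest level per length in C4-2. The 3 motifs, on either strand, are in capitals.
H2BC4, chr6:26123877-26124176, minus strand: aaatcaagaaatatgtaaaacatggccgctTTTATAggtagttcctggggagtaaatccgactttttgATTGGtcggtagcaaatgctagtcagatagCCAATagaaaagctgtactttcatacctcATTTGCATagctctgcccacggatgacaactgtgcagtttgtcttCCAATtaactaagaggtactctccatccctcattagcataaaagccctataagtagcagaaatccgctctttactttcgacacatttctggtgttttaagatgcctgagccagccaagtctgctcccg
H1-2, chr6:26056421-26056720, minus strand: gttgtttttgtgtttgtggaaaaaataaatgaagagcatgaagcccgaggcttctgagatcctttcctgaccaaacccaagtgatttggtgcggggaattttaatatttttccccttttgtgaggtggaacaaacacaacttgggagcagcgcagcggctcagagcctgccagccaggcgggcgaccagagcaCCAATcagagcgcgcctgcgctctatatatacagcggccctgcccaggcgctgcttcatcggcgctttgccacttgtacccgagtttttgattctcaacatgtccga

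In C4-2 the summed level of the 55 genes was low in both namoline libraries and nearer to the R1881 level with the other treatments. The sum was 1056 and 1066 CPM with R1881 alone and 535 and 551 CPM after namoline, then 981 and 947 CPM after TCE-5002 alone and 1083 and 1190 CPM after both inhibitors. The LNCaP-labelled libraries stood far lower, at 116 and 91.6 CPM with R1881 alone and 35.7 CPM in each of the 2 combination libraries. The groups did not overlap, with the namoline mean at 51.2% of the R1881 mean and the LNCaP-labelled combination mean at 34.4% of its own R1881 mean. The combination in C4-2 came to 107% of R1881 alone, but to 96.8% when libraries were scaled by their totals, so its direction depends on the scaling. In bulk RNA, fewer cells that express a gene and less of its RNA per cell cannot be told apart.

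**Figure D1:**
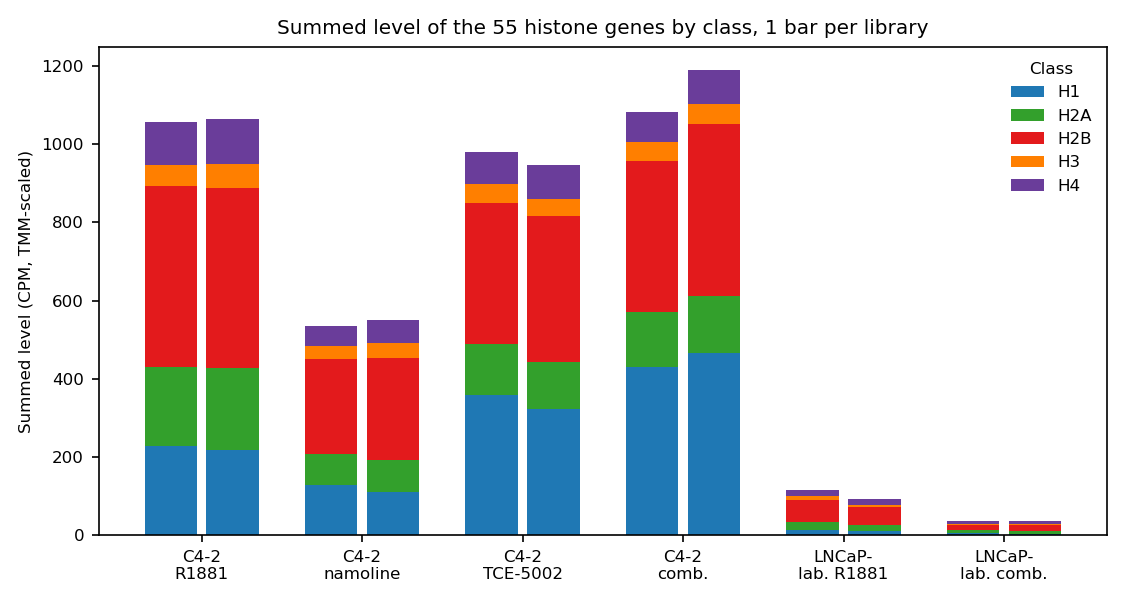
Summed level of the 55 histone genes in CPM (vertical axis), 1 bar per library in 6 groups, stacked by histone class. The 2 namoline bars stand at 535 and 551 CPM against 1056 and 1066 for R1881 alone, and the H1 share grows with TCE-5002 and the combination.

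The summed levels of the classes differed in direction, which rested on 1 gene, *H1-2*. Summed H1 genes were at 223 ± 6.18 CPM (mean ± SD, n = 2) with R1881 alone and 119 ± 11.8 CPM after namoline, then 340 ± 25.5 CPM after TCE-5002 alone and 447 ± 25.5 CPM after both inhibitors. Summed H2A genes were at 206 ± 3.82, 81.0 ± 0.117, 124 ± 6.98 and 144 ± 3.70 CPM in the same order. The H1 sum was thus above R1881 alone with TCE-5002 (152%) and the combination (200.2%), whereas the sums of H2A (60.5% and 70.0%), H2B (79.8% and 89.7%), H3 (77.8% and 85.0%) and H4 (76.4% and 73.0%) were below it. Nearly all of the H1 sum was *H1-2*. The other H1 genes tested were not higher, *H1-4* at -0.14 ± 0.18 on the log2 scale with TCE-5002 (adjusted p = 0.57, edgeR) and -0.09 ± 0.18 with the combination, and *H1-6* at -2.15 ± 0.51 and -0.44 ± 0.43. Without this gene the sum of the other 54 genes came to 50.5% of the R1881 mean for namoline, 74.6% for TCE-5002 and 82.4% for the combination.

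Few genes made up most of the signal. In C4-2 the 12 genes of highest level, *H1-2*, *H2BC21*, *H2AC6*, *H2BC12*, *H4C8*, *H2BC5*, *H4C9*, *H2BC18*, *H3C10*, *H2BC4*, *H2AC11* and *H2BC15*, gave between 88.3% and 91.6% of the summed CPM in each library. Per kilobase of exon with R1881 alone, *H1-2* led at 328 CPM per kb, followed by *H2BC12* (133), *H2BC21* (98.1) and *H2AC6* (85.8). In the LNCaP-labelled libraries with R1881 alone the order differed, with *H2BC12* (44.5 CPM per kb) above *H1-2* (17.9). At the other end, between 1 and 7 of the 55 genes had 0 counts in each C4-2 library, 13 and 14 in the LNCaP-labelled libraries with R1881 alone, and 26 and 23 in those with the combination.

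**Figure D2:**
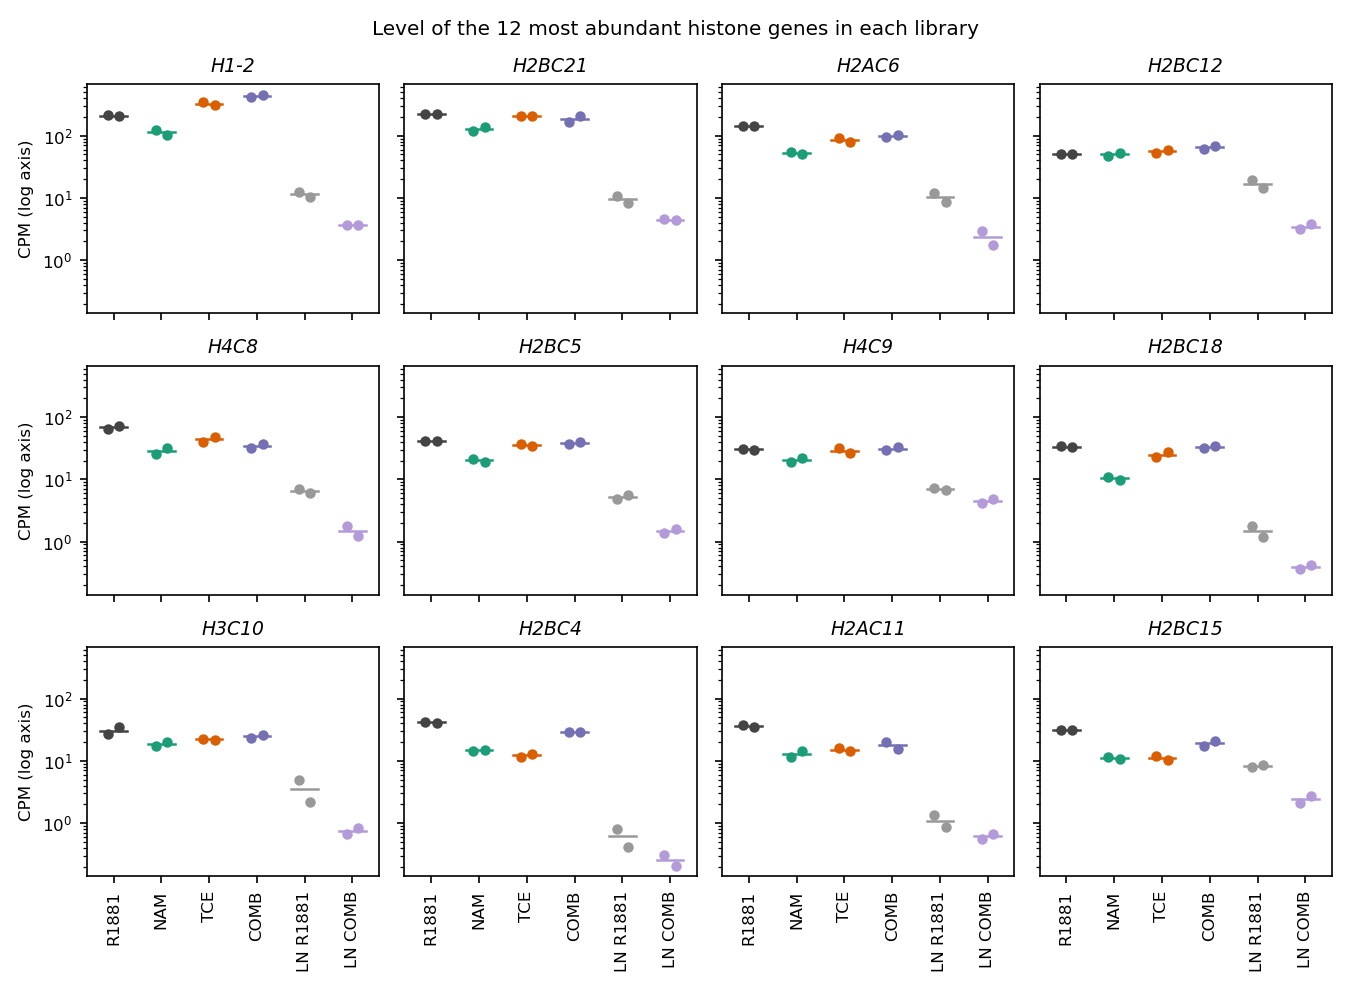
Level in CPM (log axis) of the 12 most abundant histone genes, with 1 point per library and a line at the group mean. NAM is namoline, TCE is TCE-5002, COMB is the combination and LN marks LNCaP-labelled libraries. *H1-2* is highest with the combination in C4-2, while *H2BC4* is lowest among the C4-2 groups with TCE-5002.

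Namoline, which the study describes as selective for KDM1A, was compared with R1881 alone in C4-2. Of the 55 genes, 34 passed the filter on low counts, and the other 21 had at most 1.08 CPM in any C4-2 library. Past an adjusted p of 0.05 (edgeR's quasi-likelihood test, adjusted over all 17702 genes) with at least a 2-fold change, 16 fell and 0 rose, where 6.88% of all genes tested fell and 5.17% rose. At the adjusted p alone, 24 were lower and 0 higher. Counts at the adjusted p alone, here and below, have no share of all genes given. They are not to be read against the shares at 2-fold. The median log2 change of the 34 was -1.06, against 0.00 over all genes tested. Those that fell comprised 8 of 12 H2B genes, 3 of 7 H2A genes, 2 of 3 H1 genes, 2 of 7 H4 genes and 1 of 5 H3 genes. Over all 55 genes, both namoline libraries lay below both R1881 libraries for 36 and above them for 1, against 29.8% and 28.4% of all 27649 genes with as many counts.

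*H2AC6*, an H2A gene, had the lowest adjusted p of these, at 141 and 145 CPM with R1881 alone and 54.4 and 51.3 with namoline. Its log2 fold change was -1.46 ± 0.11 (SE; adjusted p = 4.3e-07, edgeR). *H2BC18*, an H2B gene of chromosome 1, went from 33.9 and 33.3 CPM to 11 and 9.71 CPM. The change of *H2BC18* was -1.72 ± 0.15 on the log2 scale, and in neither gene did the groups overlap.

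Other genes of high level that fell were *H2BC4* (log2 -1.52 ± 0.13), *H2BC15* (-1.54 ± 0.15), *H2AC11* (-1.51 ± 0.16), *H4C8* (-1.30 ± 0.14), *H2BC11* (-1.13 ± 0.16) and *H2BC5* (-1.04 ± 0.13). *H2BC5* missed the fold limit without namoline replicate 2 (-0.98). *H2BC26* fell from 7.30 and 8.32 to 2.29 and 1.92 CPM (-1.90 ± 0.22). The largest falls were in genes of low level: *H1-6*, known as a testis linker histone, at 1.22 and 1.15 against 0.118 and 0.180 CPM (-2.96 ± 0.59), *H4C14* at 3.74 and 3.90 against 0.647 and 0.599 CPM (-2.62 ± 0.41), *H2BC17* at 3.41 and 2.37 against 0.588 and 0.539 CPM (-2.38 ± 0.38) and *H3C12* at 2.53 and 2.30 against 0.529 and 0.479 CPM (-2.27 ± 0.40). Both namoline libraries were below both controls in each of these. The 3 further genes that fell did so by 1.11 to 2.37 on the log2 scale.

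The 2 most abundant genes were lower by less than 2-fold. *H1-2* was at 214 and 207 CPM with R1881 alone and 122 and 105 with namoline (log2 -0.91 ± 0.12, adjusted p = 3.7e-05), and it passed the fold limit without namoline replicate 1 (-1.06) or with a GC correction (-1.07). *H2BC21* was at 221 and 222 against 119 and 137 CPM (-0.82 ± 0.12). *H2BC12* stood apart, at 50.3 and 51.0 CPM against 47.4 and 52.9 CPM, overlapping groups with a log2 difference of -0.04 ± 0.12 (adjusted p = 0.84).

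TCE-5002 was compared with the same R1881 libraries, so the treatment comparisons in C4-2 are not independent of each other. With TCE-5002, 10 of the 34 genes fell and 1 rose, where 6.80% of all genes tested fell and 5.04% rose, and the median log2 change was -0.51 against 0.00 over all genes. At the adjusted p alone, 15 were lower and 3 higher. The 10 comprised 5 H2B, 2 H2A, 1 H1, 1 H3 and 1 H4 gene.

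*H2BC4* fell the most among the abundant genes, from 42.2 and 41.2 CPM to 11.7 and 12.8 CPM. Its log2 change was -1.79 ± 0.13 (adjusted p = 5.4e-07). *H2BC11* went from 17.3 and 15.8 to 4.89 and 5.41 CPM (-1.70 ± 0.17), and *H2BC15* from 31.8 and 31.2 to 11.9 and 10.2 CPM (-1.53 ± 0.15). In all 3, both TCE-5002 libraries were below both controls. *H2AC11* (-1.29 ± 0.16) and *H2BC26* (-1.17 ± 0.21) fell as well, as did the low-level genes *H3C12* (-2.27 ± 0.39), *H2BC17* (-2.27 ± 0.36), *H4C14* (-2.22 ± 0.39), *H1-6* (-2.15 ± 0.51) and *H2AC13* (-1.35 ± 0.31). The call of *H2AC13* was lost without R1881 replicate 2 in C4-2, where its log2 change was -0.97.

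In contrast, *H1-2* was higher, at 349 and 310 CPM (0.63 ± 0.12, adjusted p = 0.00079), short of 2-fold. The H4 gene *H4C5*, named after its values were seen, had the same order of levels, at 4.49 and 4.29 CPM with R1881 alone, 3.41 and 2.70 CPM after namoline (-0.54 ± 0.22, adjusted p = 0.065), 7.09 and 7.23 CPM after TCE-5002 alone (0.68 ± 0.20, adjusted p = 0.014) and 8.08 and 8.75 CPM after both (0.92 ± 0.20, adjusted p = 0.0013). The values of *H2BC21* (209 and 210 CPM, -0.10 ± 0.12, adjusted p = 0.52) and *H2BC5* (36.9 and 34.7 CPM, -0.23 ± 0.12, adjusted p = 0.15) did not pass the test. The gene called as rising was *H4C3*, an H4 gene, at 0.281 and 0.512 CPM against 0.946 and 1.28 CPM (1.51 ± 0.52, adjusted p = 0.034). This call was lost without R1881 replicate 1 (1.09), R1881 replicate 2 (1.95) or TCE-5002 replicate 2 (1.27), and with DESeq2, where the adjusted p was 0.10.

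With the combination in C4-2, 4 of the 34 genes fell and 2 rose, where 12.8% of all genes tested fell and 8.87% rose. At the adjusted p alone, 8 were lower and 5 higher. The count of called genes depends on the fit, with 6 here, 3 with DESeq2 and 10 when only the 4 libraries compared were fitted. The median log2 change was -0.19, against -0.03 over all genes. *H1-2* rose to 417 and 453 CPM from 214 and 207 CPM, with no overlap (1.03 ± 0.12, adjusted p = 5.8e-06). *H4C8* fell from 64.1 and 73.1 to 31.8 and 36.5 CPM (-1.02 ± 0.14, adjusted p = 4.5e-05) and *H2AC11* from 38.0 and 34.4 to 19.9 and 15.8 CPM (-1.03 ± 0.16).

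Both calls lay at the 2-fold limit. *H4C8* missed it without combination replicate 1 (-0.94) or R1881 replicate 2 (-0.93), and *H2AC11* without combination replicate 2 (-0.85) or R1881 replicate 1 (-0.96). With a GC correction the values were -0.96 and -0.97. With RLE in place of TMM scaling, 2 genes fell and 2 rose. *H4C14* (-2.32 ± 0.40) and *H3C12* (-1.52 ± 0.37) fell from their levels under 4 CPM. *H4C3* was called as rising (1.40 ± 0.53, adjusted p = 0.039), a call lost with DESeq2 and when any of the 4 libraries compared was left out, where log2 changes ran from 0.98 without R1881 replicate 1 to 1.83 without R1881 replicate 2, with 1.58 and 1.21 without combination replicates 1 and 2.

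Some genes that fell with single inhibitors lay close to their R1881 level with both. *H2BC11* was at 15.7 and 17.6 CPM with the combination, overlapping the 17.3 and 15.8 CPM of R1881 alone (0.00 ± 0.15, adjusted p = 0.99). *H2BC18*, which fell with namoline, was at 32.0 and 34.0 CPM against 33.9 and 33.3 CPM (-0.04 ± 0.14). *H2BC26* was at 13.5 and 11.4 CPM, above the 7.30 and 8.32 CPM of R1881 alone (0.67 ± 0.19, adjusted p = 0.0082), though lower with either inhibitor.

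**Figure D3:**
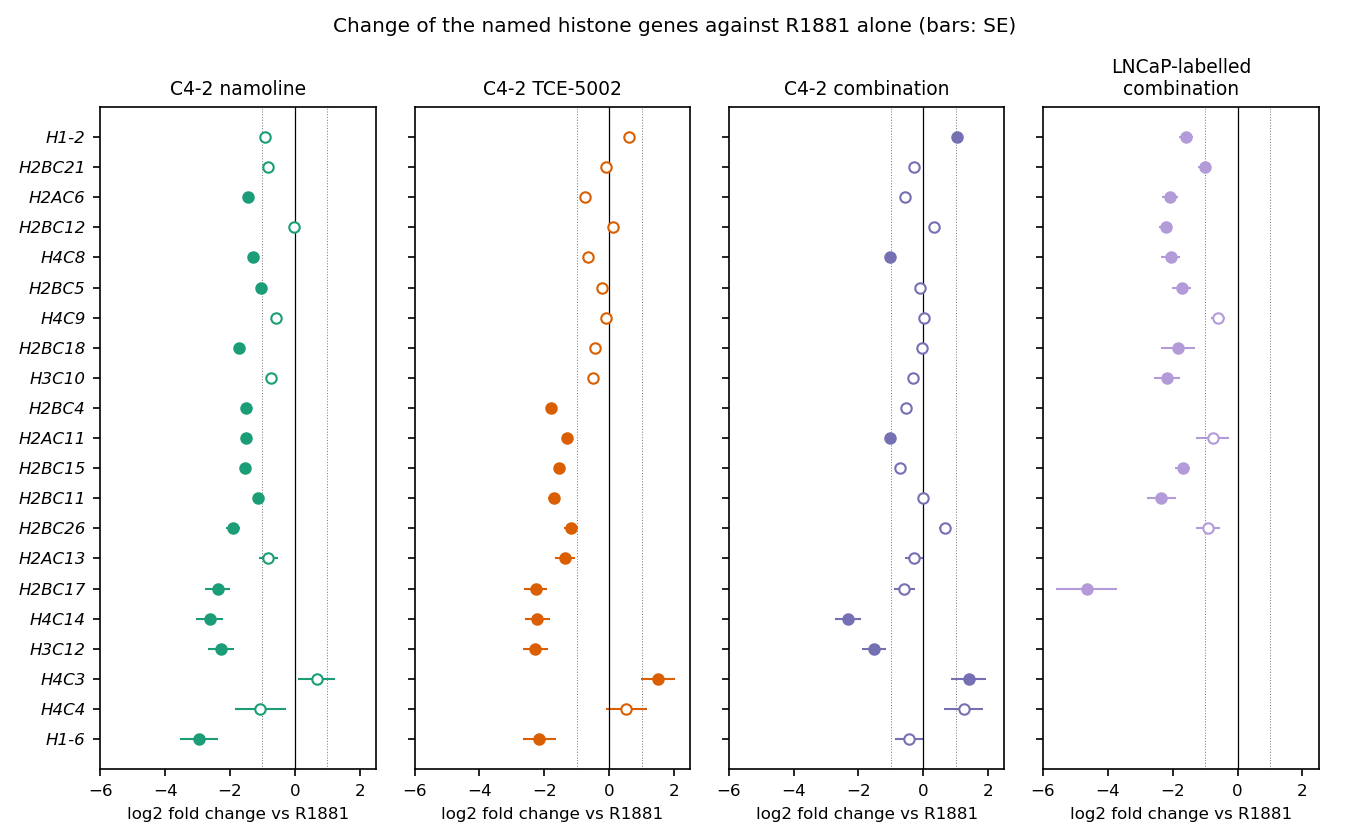
Log2 fold change against R1881 alone (horizontal axis, bars are SE) of the 21 histone genes named by the stated rule, in order of level. Filled points passed the test with at least a 2-fold change, and genes without a point did not pass the filter. Filled points lie on the left in all panels except *H4C3* with TCE-5002 and *H4C3* and *H1-2* with the combination in C4-2.

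Whether the combined effect departed from the sum of the single effects was tested as an interaction, the log2 change with both inhibitors less the changes with each alone. It was positive and past the threshold for 20 of the 34 genes and negative for 0, where 16.7% of all genes tested were higher and 18.6% lower. At the adjusted p alone, 26 were positive and 0 negative. The median was 1.40, against -0.01 over all genes. A positive value means that the level with both inhibitors lay above that which the single effects would add up to. The R1881 libraries enter this contrast too.

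The largest values were in *H1-6* (4.68 ± 0.80, adjusted p = 0.00019), *H2BC17* (4.06 ± 0.54) and *H2BC26* (3.74 ± 0.30). The size for *H1-6* is uncertain, as it rests on 5 counts over the namoline libraries and 10 over the TCE-5002 libraries. For *H2BC17* these counts were 19 and 23. *H2BC17* was at 1.77 and 2.17 CPM with the combination, between the single treatments and R1881 alone. Among abundant genes, *H2BC11* (2.83 ± 0.23), *H2BC4* (2.77 ± 0.19), *H2BC15* (2.33 ± 0.21), *H2BC18* (2.13 ± 0.20), *H2AC11* (1.76 ± 0.23), *H2AC6* (1.64 ± 0.16), *H1-2* (1.32 ± 0.16) and *H2BC5* (1.17 ± 0.18) passed. *H4C8* (0.93 ± 0.20), *H3C10* (0.91 ± 0.21), *H4C9* (0.70 ± 0.19) and *H2BC21* (0.64 ± 0.17) were under the fold limit, and *H4C8* crossed it without namoline replicate 2 (1.10), TCE-5002 replicate 2 (1.05), R1881 replicate 1 (1.02) or combination replicate 1 (1.01), as *H3C10* did without R1881 replicate 1 (1.07). *H2BC12* did not pass (0.25 ± 0.17, adjusted p = 0.22).

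Genes that share a promoter region did not always change to the same extent. *H2BC4* and *H2AC6*, 218 bases apart, changed by -1.52 and -1.46 on the log2 scale with namoline but by -1.79 and -0.74 with TCE-5002. *H2BC11* and *H2AC11*, 291 bases apart, changed by -1.13 and -1.51 with namoline, -1.70 and -1.29 with TCE-5002, and 0.00 and -1.03 with the combination. *H2AC25* and *H2BC26*, 233 bases apart, changed by -0.73 and -1.90 with namoline. *H3C12* and *H2BC17*, 356 bases apart, changed alike with the single inhibitors, by -2.27 and -2.38 with namoline and -2.27 and -2.27 with TCE-5002. With the combination they changed by -1.52 and -0.58. These pairs are examples, and differences between partners were not tested.

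In the LNCaP-labelled libraries the combination was compared with R1881 alone. There 18 of the 55 genes passed the filter, the other 37 having at most 1.09 CPM in any of these libraries, and 11 fell and 0 rose, where 11.3% of all genes tested fell and 7.44% rose. The median log2 change of the 18 was -1.64 against 0.00 over all 17565 genes, and all 18 were negative. Genes of low count, such as *H2BC17*, passed the filter through the R1881 libraries alone, so their direction was not free. Over all 55 genes, both combination libraries lay below both R1881 libraries for 31 and above them for 3. For all 27649 genes with as many counts, the shares were 33.70% and 27.98%. Genes that fell included 7 of 9 H2B genes. Without combination replicate 1, whose file name differs from its label, 14 of 25 genes fell and the median was -1.65.

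*H1-2* fell from 12.6 and 10.5 CPM to 3.64 and 3.66 CPM (log2 -1.59 ± 0.21, adjusted p = 7.6e-08), and by -1.60 without combination replicate 1. *H2BC12* fell from 19.5 and 14.4 to 3.15 and 3.77 CPM (-2.22 ± 0.20), and by -2.12 without that library. *H2AC6* fell from 11.9 and 8.46 to 2.91 and 1.75 CPM (-2.08 ± 0.25), and by -2.48 without it. The groups did not overlap in these 3 genes.

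*H2BC11* (-2.36 ± 0.45), *H3C10* (-2.18 ± 0.40), *H4C8* (-2.07 ± 0.28), *H2BC18* (-1.84 ± 0.52), *H2BC5* (-1.73 ± 0.29), *H2BC15* (-1.69 ± 0.24) and *H2BC21* (-1.02 ± 0.21) fell too. The call of *H2BC18* was lost without R1881 replicate 1 (-1.55), and that of *H2BC21* without combination replicate 2 (-0.98) or R1881 replicate 1 (-0.86). *H2BC17* had 38 counts over the R1881 libraries and 1 over the combination libraries, a level of 3.16% of R1881 (95% exact interval 0.0779% to 18.7%, counting error only). *H4C9* (-0.60 ± 0.22, adjusted p = 0.020), *H2AC11* (-0.77 ± 0.50, adjusted p = 0.19) and *H2BC26* (-0.91 ± 0.37, adjusted p = 0.037) did not reach the threshold, though *H2BC26* did without combination replicate 2 (-1.61).

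The effect of the combination differed between the lines. C4-2 minus LNCaP-labelled, the difference in log2 change was positive and past the threshold for 14 of 36 genes and negative for 0, where 11.4% of all 19763 genes were higher and 13.9% lower. The median was 1.46, against -0.10 over all genes, and also 1.46 for the 30 genes without a group at 0 counts. Without LNCaP-labelled combination replicate 1 the count was again 14 and the median 1.22. For *H1-2* the difference was 2.58 ± 0.17 (adjusted p = 1.9e-11), since it rose in C4-2 and fell in the LNCaP-labelled libraries. For *H2BC12* it was 2.51 ± 0.20.

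The largest fitted differences were in *H2AC13* (5.79), *H4C4* (5.37) and *H4C3* (4.35), and these are no measure of size because the LNCaP-labelled combination libraries held 0, 0 and 2 counts. Bounds take 3 counts over the group as the floor and leave out the counting error of the R1881 libraries. By this, *H2AC13*, with 20 counts in the R1881 libraries, was at least 5.57-fold lower with the combination. For *H4C4* the same ratio was 1.41, but with 5 counts against 0 a fall is not established. *H4C3* was at 10.9% of R1881 (95% exact interval 1.24% to 44.3%). The call of *H4C4* was lost without either LNCaP-labelled combination library (5.39 and 5.36), LNCaP-labelled R1881 replicate 1 (4.19), C4-2 combination replicate 1 (5.32) or C4-2 R1881 replicate 2 (5.07).

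With R1881 alone, the genes were far higher in C4-2 than in the LNCaP-labelled libraries, summing to 1061 ± 6.53 against 104 ± 16.9 CPM, a 10.2-fold difference. Of 36 genes tested, 33 were higher and 1 lower, where 24.3% of all genes were higher and 26.2% lower. The median log2 difference was 3.16, also with the 3 genes without a count in the LNCaP-labelled libraries set at their lower bound, against 0.00 over all genes. Genes of low count, such as *H1-6*, passed the filter through C4-2 libraries alone, so their direction was not free. Over all 55 genes, both C4-2 libraries lay above both LNCaP-labelled libraries for 44 and below them for 3. For all 27649 genes with as many counts, the shares were 38.79% and 38.96%. *H1-2* was at 214 and 207 against 12.6 and 10.5 CPM (4.25 ± 0.10, adjusted p = 1.6e-20), and *H2BC4* at 42.2 and 41.2 against 0.805 and 0.411 CPM (6.15 ± 0.20). *H4C14* was at 3.74 and 3.90 against 0.189 and 0 CPM (5.32 ± 0.59). *H1-6* had 44 counts in C4-2 and 0 in the LNCaP-labelled libraries, at least 17.0-fold higher with the 44 taken as exact.

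The single gene lower in C4-2 was *H2BC8*, named after its values were seen, at 0.37 and 0.19 against 1.04 and 0.73 CPM (log2 -1.51). It was not called with DESeq2 (-1.61), or without C4-2 R1881 replicate 1 (-2.11), C4-2 R1881 replicate 2 (-1.17) or LNCaP-labelled R1881 replicate 1 (-1.28). *H4C3* did not differ past the test, at 0.281 and 0.512 against 0.710 and 0.320 CPM (-0.36 ± 0.64, adjusted p = 0.62), and the difference of *H4C4* (2.26 ± 0.76) was lost without C4-2 R1881 replicate 1 (1.72) or LNCaP-labelled R1881 replicate 2 (1.56). As the cell type markers above differ between the same libraries, the line and the identity of the LNCaP-labelled cells cannot be told apart.

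Genes of S phase, when histone mRNA is normally made, were taken as a list of 12 markers. With namoline 9 rose and 0 fell, where 5.17% of all genes tested rose and 6.88% fell. Their median log2 change was 1.92, against -1.06 for the histone genes. *RRM2*, a ribonucleotide reductase subunit, rose from 17.7 and 10.6 to 88.6 and 123 CPM (2.87 ± 0.22, adjusted p = 3.6e-07). *E2F1*, a transcription factor of S phase entry, rose by 2.58 ± 0.19 and *CDC6*, which loads the replicative helicase, by 2.35 ± 0.17.

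With TCE-5002, 6 of the 12 rose and 1 fell (median 0.99), among them *E2F1* (1.73 ± 0.19), the helicase subunit *MCM5* (1.34 ± 0.16) and *GINS2* (1.28 ± 0.24), whereas the proliferation marker *MKI67* fell (-1.44 ± 0.20). *GINS2* was just under the limit without R1881 replicate 2 (1.00). With the combination in C4-2, 1 rose and 2 fell (median 0.17), *CDC6* (1.11 ± 0.17), *MKI67* (-1.70 ± 0.20) and the cyclin gene *CCNA2* (-1.01 ± 0.21). *CDC6* missed the limit without R1881 replicate 2 (0.89), and *CCNA2* without R1881 replicate 1 (-0.82) or combination replicate 2 (-0.88), and with RLE scaling (-0.98) or a GC correction (-0.97). The interaction was negative and past the threshold for 11 of the 12 (median -2.71), with *E2F1* at -4.04 ± 0.26. For the LNCaP-labelled combination 0 were called at 2-fold by edgeR (median 0.05), with 5 higher and 3 lower at the adjusted p alone. With R1881 alone, all 12 were lower in C4-2 than in the LNCaP-labelled libraries (median -2.90), while 33 of 36 histone genes were higher. Over all genes tested, the shares higher and lower were 5.04% and 6.80% with TCE-5002, and 8.87% and 12.8% with the combination in C4-2. They were 16.7% and 18.6% in the interaction, 7.44% and 11.3% in the LNCaP-labelled combination and 24.3% and 26.2% with R1881 alone. The part of cell cycle position in the histone results was not tested.

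**Figure D4:**
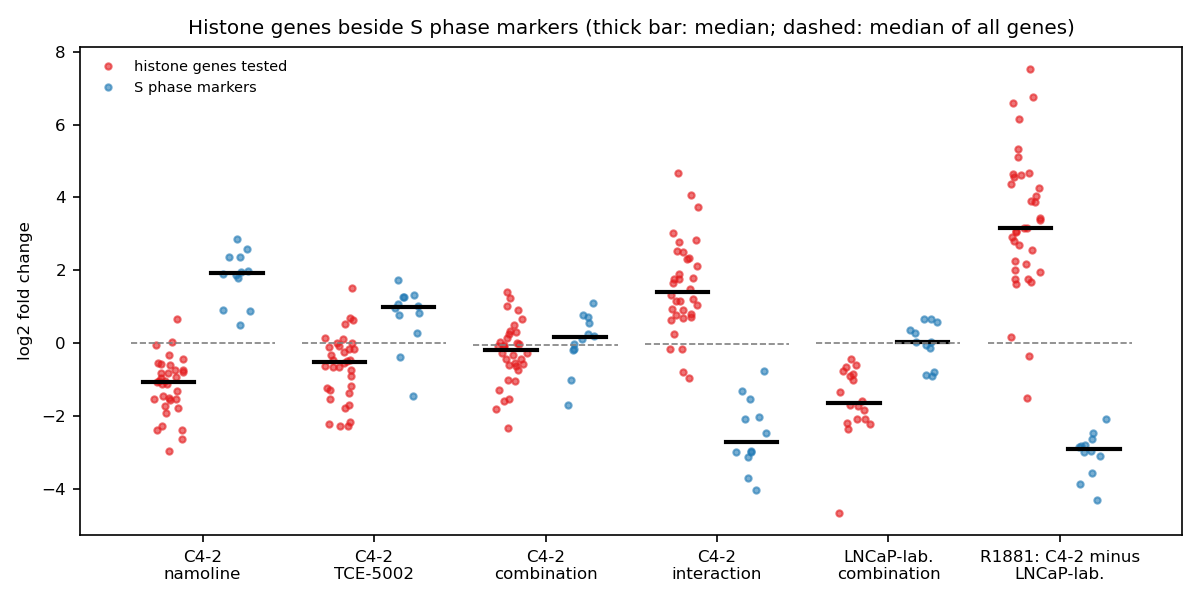
Log2 fold change (vertical axis) of each histone gene tested (red) and each of 12 S phase markers (blue) in 6 comparisons, with black bars at list medians and dashed lines at the median of all genes. With namoline the medians are -1.06 and 1.92, and in the interaction 1.40 and -2.71, on opposite sides of 0.

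Of the 30 genes for histone gene transcription and 3′ end processing, 3 rose with namoline, 1 with TCE-5002 and 4 with the combination in C4-2. In each, 0 fell, with medians of 0.22, -0.05 and 0.40. Over all genes tested, 5.17%, 5.04% and 8.87% rose and 6.88%, 6.80% and 12.8% fell in the same order. The list was not tested against those shares. *SLBP*, whose protein binds the stem-loop, was at 39 and 40.9 CPM with R1881 alone and 68.7 and 77.1 CPM after namoline, then 79.2 and 60.7 CPM after TCE-5002 alone and 104 and 114 CPM after both inhibitors. All 6 treated C4-2 libraries were above both controls, and the changes were 0.85 ± 0.13, 0.79 ± 0.13 and 1.44 ± 0.13 on the log2 scale, the last of which passed the fold limit (adjusted p = 1e-06). *NPAT*, the coactivator of histone gene transcription, was at 35.3 and 31.5 CPM with R1881 alone and 32.6 and 33.4 with namoline, overlapping groups (-0.04 ± 0.14), and at 53.9 and 50.3 CPM with the combination (0.63 ± 0.14, adjusted p = 0.0015).

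*ZNF473*, a zinc finger protein of the U7 processing machinery, rose with the combination from 14.6 and 15.4 to 43.4 and 45.0 CPM (1.55 ± 0.14). *CCNE2*, a cyclin partner of CDK2, rose with namoline (3.17 ± 0.22), TCE-5002 (1.35 ± 0.23) and the combination (1.47 ± 0.23). *CCNE1* (1.08 ± 0.16) and *CDK2* (1.03 ± 0.12) rose with namoline, with values just under the limit without namoline replicate 2 (0.97 and 0.98) and, for *CDK2*, without R1881 replicate 2 (0.97). With a GC correction both were under the limit, *CCNE1* at 0.999 and *CDK2* at 0.96. In the LNCaP-labelled libraries the combination left *SLBP* at 116 and 126 CPM against 107 and 105 (0.25 ± 0.10, adjusted p = 0.038, edgeR). Of the 30 genes 1 rose there, the processing endonuclease gene *CPSF3* (1.13 ± 0.11, or 0.95 with a GC correction). Another 3 fell, *CCNE1* (-1.74 ± 0.16), *UPF1*, which acts in histone mRNA decay (-1.51 ± 0.11), and the kinase gene *CDK9* (-1.45 ± 0.11). Over all genes tested there, 7.44% rose and 11.3% fell.

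Of 21 genes for histone chaperones and importers, 6 rose and 0 fell with namoline (median 0.54), among them *ASF1B* (2.17 ± 0.20), *TONSL* (1.82 ± 0.20) and *CHAF1B*, a subunit of the chromatin assembly factor CAF-1 (1.61 ± 0.15). With TCE-5002 *TONSL* (1.23 ± 0.20) and *CHAF1B* (1.09 ± 0.15) rose, calls lost without TCE-5002 replicate 2 for *TONSL* (0.89) and without R1881 replicate 1 for *CHAF1B* (0.97), and with a GC correction for *TONSL* (0.88). With the combination in C4-2, the importin gene *IPO4* rose (1.65 ± 0.34) and *HJURP*, the chaperone of the centromeric histone, fell (-1.45 ± 0.23). *NAP1L1* rose with the LNCaP-labelled combination (1.06 ± 0.12). This value was under the limit without combination replicate 2 (0.95) or R1881 replicate 1 (0.99) or with a GC correction (0.81). Over all genes tested, 5.17% rose and 6.88% fell with namoline, and 5.04% and 6.80% with TCE-5002. With the combination the shares were 8.87% and 12.8% in C4-2 and 7.44% and 11.3% in the LNCaP-labelled libraries.

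Of 12 replication-independent histone genes, whose mRNAs carry poly(A) tails, 11 were tested, and 1 rose and 1 fell with namoline (median -0.45), 0 and 2 with TCE-5002 (median -0.09), 0 and 1 with the combination in C4-2 (median -0.33) and 0 and 3 in the LNCaP-labelled libraries (median -0.25). Over all genes tested, 5.17%, 5.04%, 8.87% and 7.44% rose and 6.88%, 6.80%, 12.8% and 11.3% fell in that order. At the adjusted p alone 5, 4, 6 and 6 of the 11 were lower and 1, 1, 0 and 0 higher in the same order. No share of all genes is given at that threshold, so these counts are not read as a change of the list. *H2AX*, whose transcripts can end either at a stem-loop or with a tail, rose with namoline (1.36 ± 0.22), though under the limit without namoline replicate 2 (0.94) and at 1.00 with a GC correction. *CENPA*, the centromeric H3, fell with TCE-5002 (-1.62 ± 0.23) and the combination (-2.71 ± 0.26). With the combination in the LNCaP-labelled libraries *H1-10* (-1.28 ± 0.11), *H2AJ* (-1.24 ± 0.20) and *H2AX* (-1.0 ± 0.12) fell, but with a GC correction *H1-10* came to -0.51 and *H2AX* to -0.36, and *H2AX* missed the limit without combination replicate 2 (-0.80) or R1881 replicate 1 (-0.98).

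RNAs that lack a poly(A) tail were also read in these libraries. Of 9, 5 were listed at 0 in all 12 libraries, among them *RN7SL1*, the near-identical copy of *RN7SL2*, so a 0 may mean that reads were not assigned, and these values do not measure how strictly tailed RNA was selected. Another 3 were at 0.62 CPM or less. *RN7SL2*, a signal recognition particle RNA, was at 81.2 and 239 CPM with R1881 alone and 108 and 317 CPM after namoline, then 62.9 and 120 CPM after TCE-5002 alone and 213 and 39.3 CPM after both inhibitors. The 2 libraries of each C4-2 group differed widely and the groups overlapped, while the histone sums of the same pairs lay close together. In the LNCaP-labelled libraries *RN7SL2* was at 63.1 and 48.0 CPM with R1881 alone and 18.6 and 24.9 with the combination (-1.29 ± 0.14, adjusted p = 1.9e-09; -0.82 with a GC correction), so it was lower there, as the histone genes were. With R1881 alone it was higher in C4-2 than in the LNCaP-labelled libraries (1.58 ± 0.44, adjusted p = 0.0023), also the direction of the histone genes, a call lost with DESeq2 (1.54) and without C4-2 R1881 replicate 2 (0.61). Its part in these results was not tested.

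Some values rest on shared sequence. Of the 55 genes, 15 shared at least 1 stretch of 150 bases with another of the 93 genes that matched the names. Stretches shared with genes outside these 93 were not looked for. *H4C14* shared 92.2% of its stretches with *H4C15* and neighbouring genes, while *H2AC13* shared 51.7% with *H2AC14* and *H3C12* 31.5% with *H2AC17*. Exons of 22 genes overlapped those of another gene, for *H3C12* over 44.7% of its length, and the counting did not use strand. Counts of these genes are uncertain to that extent. Of the other histone genes named in the comparisons, none shared more than 5.58% of its stretches within the 93.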

How the data were processed

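RNA was captured by poly(A) selection and sequenced in paired ends. Per the submitters' processing notes, the authors trimmed reads with Trim Galore, aligned them to GRCh38 with STAR and counted fragments with featureCounts 1.5.0-p1 against Ensembl 83 annotation, per the file headers with no strand option. The deposited values are raw counts per gene, 1 file per library. Groups came from the library titles, since the treatment field of the labels describes siRNA work.

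From these counts, genes were filtered with filterByExpr, scaled by TMM and tested by the quasi-likelihood F test of edgeR 4.0.16 (limma 3.58.1, R 4.3.3), p-values being adjusted by Benjamini-Hochberg across every gene in the fit. The C4-2 contrasts were fitted on the 8 C4-2 libraries, the LNCaP-labelled contrast on its 4 libraries, and the contrasts between lines on the 8 libraries with R1881 alone or the combination. A gene rose or fell at an adjusted p under 0.05 with a log2 change of at least 1. SE is the log2 change over the square root of F. CPM used TMM factors over all 12 libraries. The steps were tested on simulated counts.

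Named were the 12 genes of highest mean level, up to 3 rising and 3 falling called genes per comparison with at least 1 CPM in the higher group, *SLBP*, *NPAT*, and up to 3 per direction in each further list. The genes and lists were chosen with earlier results of these data known. Of the list genes, 1 was not analysed here, and 1 named by the rule is not reported here. Alternatives were RLE scaling, no filter, DESeq2 1.42.0, each replicate left out, a replicate block, a GC correction, and only the 4 libraries compared. Intervals are exact Clopper-Pearson intervals, and intervals and floors (3 counts over a group) cover counting error only.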

Additional observations from a re-analysis of the deposited data

Results flagged for a closer look

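The effect of the combination differed between C4-2 and the LNCaP-labelled libraries, by the test of the difference itself (edgeR's quasi-likelihood test, adjusted over all genes, with at least a 2-fold difference), for 13 of the named histone genes. The differences in log2 change, C4-2 minus LNCaP-labelled, were 2.58 for *H1-2*, 2.51 for *H2BC12*, 2.29 for *H2BC11*, 1.80 for *H3C10*, 1.74 for *H2BC18*, 1.57 for *H2BC5*, 1.52 for *H2BC26*, 1.47 for *H2AC6* and 1.00 for *H4C8*. They were 5.79 for *H2AC13*, 5.37 for *H4C4*, 4.35 for *H4C3* and 4.0 for *H2BC17*, where the LNCaP-labelled combination libraries held between 0 and 2 counts. *H4C8* missed the fold limit without C4-2 combination replicate 2 (0.92), C4-2 R1881 replicate 1 (0.90), LNCaP-labelled combination replicate 2 (0.74) or LNCaP-labelled R1881 replicate 1 (0.99). Without LNCaP-labelled combination replicate 1, *H4C4* was no longer called (5.39) and *H1-2* was at 2.56.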

How the results depend on the processing

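Of 82 recomputed counts of histone genes called, 80 stayed within 1.5 times the value given above. The combination in C4-2 gave 6 called genes, but 3 with DESeq2 and 10 when only the 4 libraries compared were fitted. Leaving out each replicate in turn gave 15 to 17 called genes for namoline (16 with all), 9 to 11 for TCE-5002 (11), 4 to 5 for the combination in C4-2 (6), 17 to 23 for the interaction (20), 9 to 15 for the combination in the LNCaP-labelled libraries (11), 13 to 17 for the difference between lines (14) and 32 to 34 for the lines with R1881 alone (34). Of 1649 recomputed changes of single named histone genes, 0 changed sign among those called, 37 lost their call and 22 gained one. Where a replicate was left out, its lone partner was assumed to vary like the other groups. Replicates of the same number deviated together weakly or not at all (correlations from -0.22 to 0.20), so the numbers were not shown to pair the samples. This does not exclude a pairing. With the replicate block the counts were 16, 11, 6, 20, 11, 14 and 34 in the same order. With 2 libraries per group, and under 1 CPM for many of these genes in the LNCaP-labelled libraries, 37 of the 55 could not be tested there.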
